A study of Mus musculus with 32 samples.

Results

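A set of 33 genes of bile acid synthesis and transport, taken by symbol from the 41585 gene entries of the count tables, was followed in mouse liver. They comprised 16 synthesis genes, 14 transporters and 3 genes of bile acid signalling. The rule that chose them uses gene symbols and no measured value, but the list was drawn up with earlier results of these data known. RNA-seq was performed on livers of 32 C57BL/6 mice (C57Bl/6J in the methods of the study), 4 for each combination of genotype, diet and sex. The genotypes were wildtype (WT) and Cyp2b9/10/13-null (Cyp2b-null), a line made with CRISPR/Cas9 that lacks 3 Cyp2b enzymes of xenobiotic and fatty acid metabolism. The diets were normal chow (ND) and the CDAHFD, a high fat diet with L-amino acids in place of protein that is deficient in choline and holds 62% fat and 0.1% methionine, which is used to induce nonalcoholic steatohepatitis. Mice were 10 weeks old at the start and were fed for 8 weeks, and the study asked how the loss of Cyp2b alters the response of the liver to this diet. The null line was kept by the study and the WT mice were purchased, so genotype cannot be told apart from the source of the mice. Females and males were deposited in separate tables, so sex cannot be told apart from the table either.

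Bile acids are made from cholesterol in hepatocytes. The classic route starts with 7α-hydroxylation by Cyp7a1, and alternative routes start with oxidation of the sterol side chain by Cyp27a1 or with other oxysterols. The products have their side chain shortened in peroxisomes, are joined to taurine by Slc27a5 and Baat, and are pumped into the canaliculus by Abcb11. They return in portal blood, where Slc10a1 and organic anion transporters of the Slco family take them back into hepatocytes, and exporters on the sinusoidal side can release them to blood. Ileal Fgf15, acting on Fgfr4 and its partner Klb, and the receptor Nr1h4 (FXR) restrain synthesis.

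Libraries held 2906411 to 10166959 counts, and levels below are CPM (counts scaled to the library size) on one TMM scale over the 32 libraries. Of the 33 members, 30 had enough counts to be tested in both sexes. Ch25h, a cholesterol 25-hydroxylase, had 42 counts in 14 libraries, 16 of them in CDAHFD-fed Cyp2b-null male replicate 3. Slc51a, a subunit of the basolateral bile acid exporter, had 2 counts in all, and the bile acid receptor Gpbar1 had 12. The deleted genes were checked first: their summed level was 933 to 1088 CPM in ND-fed WT females and 1.0 to 4.22 CPM in ND-fed null females. It was 6.07 to 15.9 CPM in ND-fed WT males and 1.33 to 3.0 CPM in ND-fed null males, where the WT level is itself low. All 3 were lower in null females on either diet. Of the 2 tested in males, Cyp2b10 was lower on ND and Cyp2b9 on the CDAHFD, and the other was not called on each diet. CDAHFD-fed Cyp2b-null female replicate 3 stood apart from the other libraries, with a mean correlation of 0.954 to its group against at least 0.968 for every other library. Nothing in the sources says whether any mice were littermates or were handled as pairs. P-values rest on the spread between libraries of the same group, pooled over all groups of a fit.

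The promoters of 4 transporters are shown because these genes sit on the uptake and export faces of the hepatocyte and fell on the CDAHFD in both sexes or, for Slco1a1, in males. Each is the stretch of 250 bases before a RefSeq start site in GRCm38.p6, 5′ to 3′ on the strand of the gene. Capitals mark matches, on either strand, to the letters TATAAA (a core promoter box), AGGTCA (nuclear receptor site), TTCNNNGAA (STAT motif) or GTTAAT (HNF1 site). The Slco1b2 window runs past the gene start at chr6:141629452, so its end, with the GTTAAT match, lies within the gene. Slc10a1 has another window, chr12:80968080-80968329, which holds AGGTCA and is not shown.
Abcb11, the canalicular bile salt pump, chr2:69342617-69342866, minus strand: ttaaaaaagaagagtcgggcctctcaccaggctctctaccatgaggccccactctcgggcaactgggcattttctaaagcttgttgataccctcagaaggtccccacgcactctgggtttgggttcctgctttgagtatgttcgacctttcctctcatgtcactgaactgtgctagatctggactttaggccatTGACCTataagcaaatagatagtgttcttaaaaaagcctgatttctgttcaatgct
Slc10a1, the sodium-dependent uptake carrier, chr12:80968706-80968955, minus strand: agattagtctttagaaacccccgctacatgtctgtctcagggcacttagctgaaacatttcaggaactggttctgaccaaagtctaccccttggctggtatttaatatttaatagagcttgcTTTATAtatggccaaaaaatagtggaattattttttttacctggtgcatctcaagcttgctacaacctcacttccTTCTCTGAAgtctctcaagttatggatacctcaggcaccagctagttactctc
Slco1b2, an organic anion uptake carrier, chr6:141629268-141629517, plus strand: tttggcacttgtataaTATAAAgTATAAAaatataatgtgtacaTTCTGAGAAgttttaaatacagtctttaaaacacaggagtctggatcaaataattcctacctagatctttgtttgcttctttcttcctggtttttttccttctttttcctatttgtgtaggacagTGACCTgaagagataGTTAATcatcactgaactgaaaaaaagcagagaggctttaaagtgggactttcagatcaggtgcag
Slco1a1, a second uptake carrier of that family, chr6:141946963-141947212, minus strand: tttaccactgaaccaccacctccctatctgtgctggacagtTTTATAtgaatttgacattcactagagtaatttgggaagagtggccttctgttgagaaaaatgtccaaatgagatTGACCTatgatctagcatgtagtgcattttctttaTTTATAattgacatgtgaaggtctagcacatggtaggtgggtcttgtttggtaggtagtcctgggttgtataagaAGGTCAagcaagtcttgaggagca
RefSeq windows were used for 24 of the 33 members, 29 windows in all. Some of them reach past the outermost gene start, and those of Cyp27a1 and Scp2 lie wholly within the gene. The core promoter box stood in 6 of the 29 windows against 12.4% of 32851 windows over all genes, AGGTCA in 10 against 14%, the STAT letters in 5 against 7.02% and the HNF1 letters in 2 against 6.43%. CAAGGTCA, an LRH-1 site that overlaps the nuclear receptor site, stood in 0 of the 29 windows against 1.33%. The FXR element IR1, in which AGGTCA and its reverse complement stand 1 base apart, stood in 0 against 0.00609%. These are matches of letters and not binding sites. Slco1b2 (chr6:141629452-141686646), Slco1a4 (chr6:141805438-141856284) and Slco1a1 (chr6:141907281-141946962) lie in one cluster on chromosome 6.

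In ND-fed WT livers the most abundant members per exon length were the carrier protein Scp2, the bile acid-CoA ligase Slc27a5, Slc10a1 and Cyp2c70, which makes muricholic acids. Slc27a5 stood at 518 ± 32.7 CPM per kb of exons in females and 543 ± 31.6 in males (SD, n = 4). Scp2 stood at 430.3 ± 79.4 CPM per kb in females and 1049 ± 111 in males, so it ranked first in males, and in females the ranges of both genes overlapped. The rate-limiting enzyme Cyp7a1 stood at 25.3 ± 11.5 CPM per kb in females and 27.2 ± 8.26 in males, which ranked it 20 and 21 among the 33 members. Cyp46a1, Abcc4 and Slc51b stood under 2 CPM per kb in both sexes. In females the ranges of Scp2, Slc10a1 and Cyp2c70 overlapped, so their order is not resolved.

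**Figure D1:**
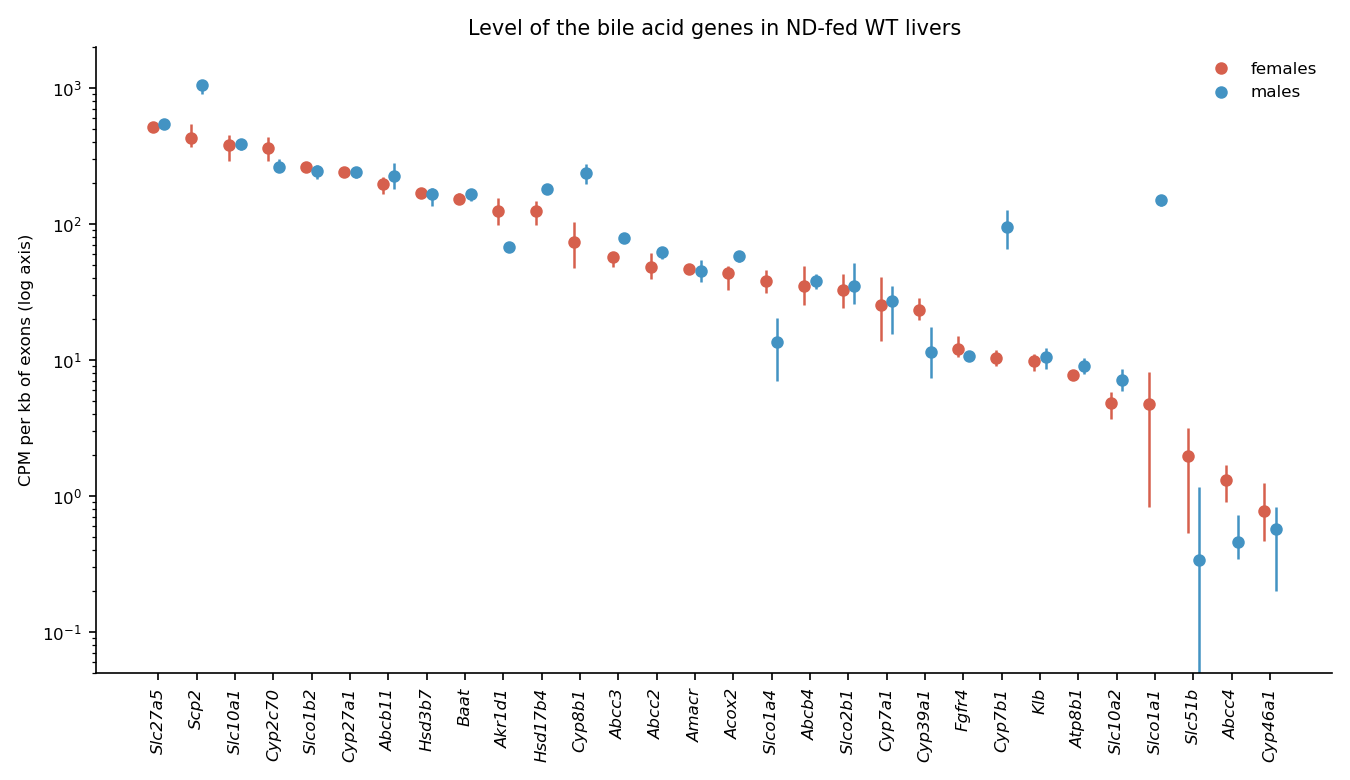
Level of the 30 tested members in ND-fed WT livers, as CPM per kb of exons on a log axis; points are means and lines the range of 4 livers for each sex, with the lowest male Slc51b values at 0 and off the axis. Most genes lie together in females and males, while Slco1a1, Cyp7b1, Cyp8b1 and Scp2 stand higher in males. Slco1a4, Cyp39a1, Akr1d1, Abcc4 and Slc51b stand higher in females, with overlapping ranges for Slc51b.

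The first comparison asked how the CDAHFD changed these genes in each genotype and sex. Most members that moved fell, among them enzymes of synthesis, both conjugation enzymes, 4 of the 5 sinusoidal uptake carriers in each comparison and the canalicular bile salt pump. The CDAHFD lowered 14 of 30 members and raised 1 in WT females, where 24.1% of the 13226 genes tested were called at adjusted p under 0.05. It lowered 16 and raised 1 in Cyp2b-null females (30.8% of genes called). In males, of 13460 genes tested, it lowered 19 and raised 3 in WT (33% called) and lowered 22 and raised 4 in Cyp2b-null (37.4% called). The median log2 change of the members was -0.51, -0.55, -0.50 and -0.66 in these 4 comparisons, against -0.002, 0.027, -0.023 and -0.008 for all genes tested. The values of the 2 diet groups did not overlap for 13, 17, 17 and 25 of the 30 members, against 26.0%, 30.8%, 28.4% and 36.8% of all genes. Without CDAHFD-fed null female replicate 3 and null male replicate 4 together, which the study's heat maps do not show, 16, 15, 22 and 26 members were called.

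Among the 30 members tested, 11 fell in all 4 comparisons, where 4.48% of the 12978 genes tested in both sexes did. They were Akr1d1, Cyp2c70, Cyp27a1, Cyp46a1, Slc27a5, Baat, Abcb11, Slc10a1, Slco1b2, Slco2b1 and the co-receptor Klb. No member rose in all 4, where 9.08% of genes did, and Cyp7a1 and the ring enzyme Hsd3b7 were not called in any. These shares depend on scaling: with library size in place of TMM factors the median of all genes moved to 0.32, 0.28, 0.37 and 0.36, and the members called were 3 higher and 10 lower, 3 and 9, 5 and 9, and 5 and 14, where 33.3%, 35.4%, 42.3% and 44.4% of all genes were called. Of the 11 members, 5 then fell in all 4 comparisons (Akr1d1, Cyp27a1, Slc27a5, Abcb11 and Slc10a1), where 1.42% of genes did, and Abcb4 rose in all 4, where 17.5% did. Under that scaling the falls of Slco1b2 and Hsd17b4 in WT males and of Acox2 and Atp8b1 in Cyp2b-null males turned to changes of 0.01, 0.05, 0.05 and 0.01, not called.

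**Figure D2:**
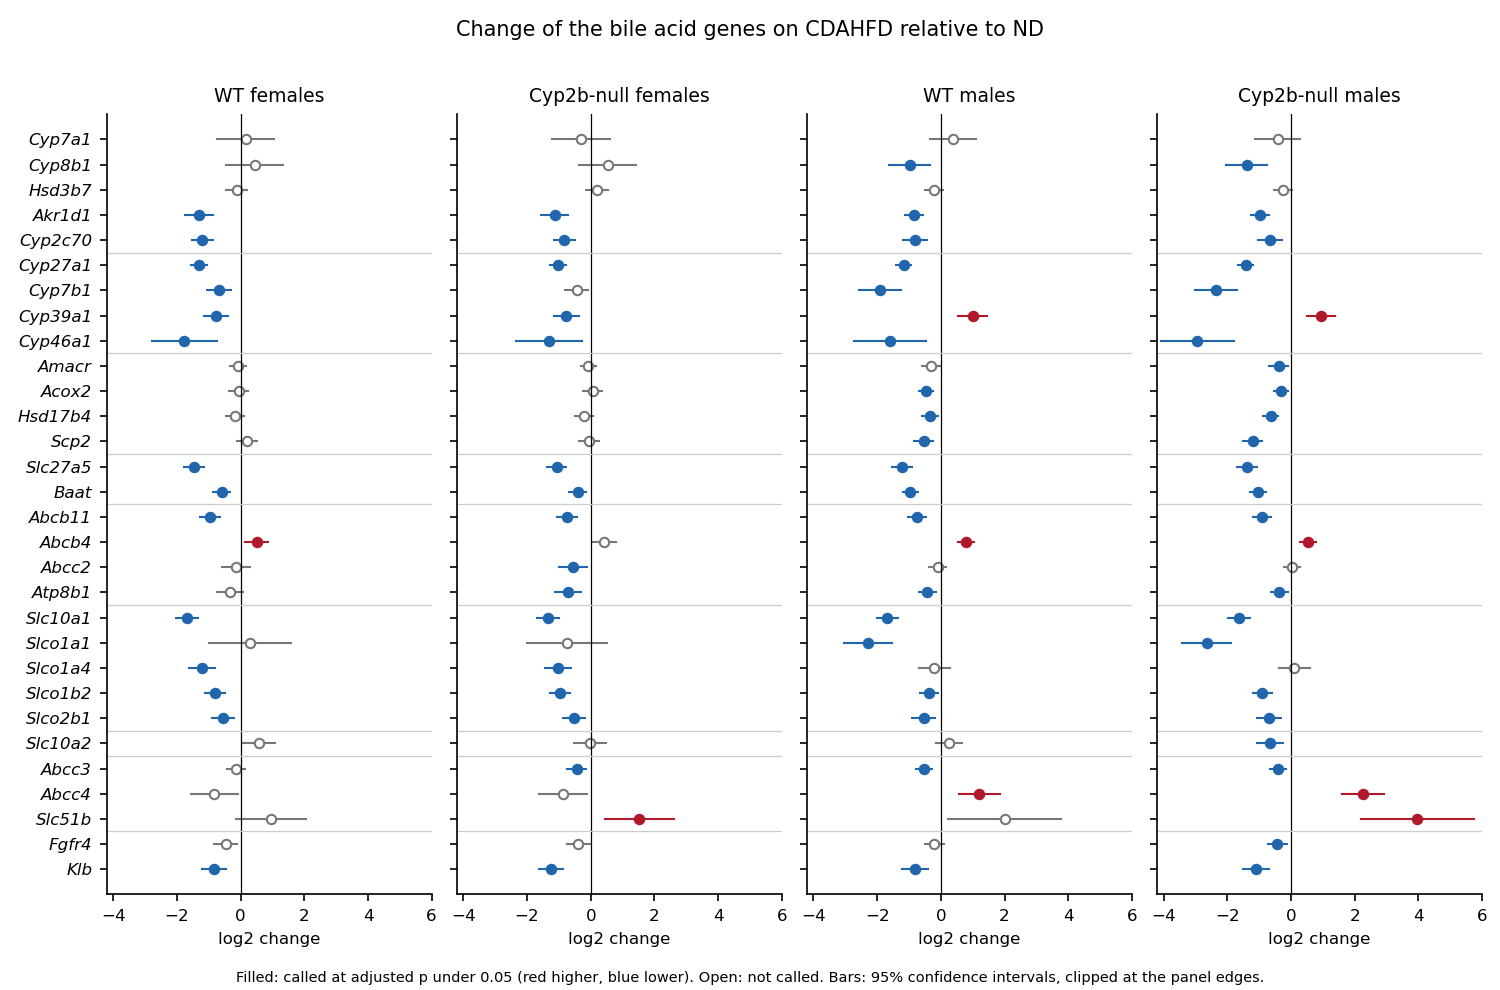
Log2 change of each tested member on the CDAHFD relative to ND, with 95% confidence intervals, in 4 panels for genotype and sex. Filled points passed adjusted p of 0.05 (blue lower, red higher), open points did not, and grey lines part the functional groups; blue points outnumber red ones in each panel, with Cyp39a1 and Abcc4 red in males only.

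Cyp27a1, the mitochondrial sterol 27-hydroxylase that opens the alternative route, fell in each comparison. It stood at 571, 517, 500.3 and 503 CPM in ND-fed WT females and 209, 218, 220.4 and 186 CPM in CDAHFD-fed WT females. WT males held 554, 473, 538 and 540.4 CPM on ND and 258, 216, 209 and 249.9 CPM on the CDAHFD. The diet groups did not overlap in any sex or genotype. The log2 change was -1.30 (SE 0.117, adjusted p = 9.73e-08) in WT females, -1.03 (SE 0.117, adjusted p = 1.69e-06) in Cyp2b-null females, -1.17 (SE 0.112, adjusted p = 9.3e-08) in WT males and -1.42 (SE 0.113, adjusted p = 5.76e-09) in Cyp2b-null males.

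Akr1d1, the 5β-reductase that shapes the steroid rings, fell as well. ND-fed WT females held 301, 283, 448 and 422 CPM and CDAHFD-fed WT females 183, 163, 132 and 104 CPM, without overlap. Its log2 change was -1.30 (SE 0.209, adjusted p = 8.94e-05) in WT females and -1.13 (SE 0.208, adjusted p = 3.4e-04) in null females, with -0.85 and -0.97 in WT and null males. Cyp2c70, the enzyme that sets the mouse bile acid pool apart from the human pool, changed by -1.20, -0.83, -0.81 and -0.65 in the same order of groups.

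Cyp46a1, a cholesterol 24-hydroxylase best known from brain, fell in all 4 comparisons on few counts, with log2 changes of -1.77 (SE 0.491, adjusted p = 0.011) in WT females, -1.61 (SE 0.544, adjusted p = 0.0273) in WT males and -2.94 (SE 0.552, adjusted p = 2.38e-04) in null males. There were 64 counts over the 4 ND-fed Cyp2b-null males and 11 over the 4 CDAHFD-fed ones, a ratio of 0.119 with an exact 95% counting interval of 0.0566 to 0.228. Its call in Cyp2b-null females, adjusted p = 0.0499, was lost in 11 of 16 fits that left out 1 library (ND-fed WT replicates 1, 2 and 3, CDAHFD-fed WT 3 and 4, ND-fed null 1, 2 and 3, CDAHFD-fed null 1, 3 and 4), with adjusted p up to 0.143. In WT females the call was lost without ND-fed replicate 4 (adjusted p = 0.0871), and in WT males without ND-fed replicate 1 or 3 or CDAHFD-fed replicate 1, 2 or 3 (0.0566 to 0.0879).

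Cyp7a1 varied widely within groups, with a range of 26.6 to 167 CPM in ND-fed Cyp2b-null females and of 54.4 to 241 CPM in CDAHFD-fed WT males. Its diet change was 0.16 in WT females (95% interval -0.74 to 1.06) and 0.37 in WT males (-0.34 to 1.09), and -0.30 (-1.21 to 0.61) and -0.41 (-1.12 to 0.30) in null females and males. Hsd3b7, the 3β-hydroxysteroid dehydrogenase of the ring steps, changed by -0.25 to 0.20, not called, and 62% of its exon length lies in exons of Gm49388 on the same strand, so its reads cannot be assigned with certainty. Cyp8b1, the 12α-hydroxylase that directs synthesis to cholic acid, was called in males and not in females (0.44 in WT, 0.53 in null). WT males held 421, 541, 504 and 384 CPM on ND and 418, 189, 159 and 169.9 CPM on the CDAHFD, where replicate 1 lay within the ND range. Cyp2b-null males held 480.0, 629.8, 524 and 331 CPM on ND and 260.2, 141, 92.8 and 257 CPM on the CDAHFD, without overlap. The log2 change was -0.98 (SE 0.304, adjusted p = 0.0164) in WT and -1.39 (SE 0.307, adjusted p = 0.00112) in Cyp2b-null males, and the WT call was lost without CDAHFD-fed replicate 2, 3 or 4 (adjusted p 0.0513 to 0.0621). The difference of the diet change between the sexes was not called for this gene (-1.89, SE 0.582, adjusted p = 0.0619 in null mice).

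Cyp7b1, the oxysterol 7α-hydroxylase of the alternative route, fell in males of both genotypes. ND-fed WT males held 274, 188, 219 and 142 CPM and CDAHFD-fed WT males 105, 32.7, 44.7 and 38 CPM. The change was -1.90 (SE 0.319, adjusted p = 9.43e-05) in WT and -2.35 (SE 0.324, adjusted p = 7.21e-06) in Cyp2b-null males, and the groups did not overlap. In WT females, where the gene stood at 22.6 ± 2.98 CPM on ND, it fell by 0.67 on the log2 scale (adjusted p = 0.0102, 0.0501 without CDAHFD-fed replicate 4, and 0.126 with library size alone). In Cyp2b-null females the change was -0.44 (SE 0.180, adjusted p = 0.0662), not called. Cyp39a1, the 24-hydroxycholesterol 7α-hydroxylase, went in opposite directions in the sexes: WT females held 70.2, 87.6, 60.3 and 68.4 CPM on ND and 51.2, 31.2, 33.7 and 49.4 CPM on the CDAHFD. WT males held 30.9, 22.7, 33.9 and 53.1 CPM on ND and 61.6, 77, 52.4 and 88 CPM on the CDAHFD, with 1 ND value above the lowest CDAHFD value. The log2 change was -0.76 (SE 0.185, adjusted p = 0.00419) in WT females and 1.0 (SE 0.215, adjusted p = 0.00113) in WT males, and -0.76 and 0.93 in the null mice. With library size alone the female changes were -0.43 in WT and -0.49 in null mice, not called (adjusted p = 0.0985 and 0.0558).

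Side chain shortening is carried out by the racemase Amacr, the oxidase Acox2, the bifunctional Hsd17b4 and the thiolase Scp2. In females their changes lay between -0.20 and 0.21 and were not called. In males 3 fell in WT and all 4 in Cyp2b-null mice. Scp2 was the clearest: ND-fed Cyp2b-null males held 3697, 4650.0, 4705 and 4919 CPM and CDAHFD-fed ones 2163, 1822, 1849 and 1983 CPM. Its change was -1.20 (SE 0.146, adjusted p = 1.47e-06) in Cyp2b-null males and -0.54 (SE 0.144, adjusted p = 0.00611) in WT males, where with library size alone it was -0.16 and not called (adjusted p = 0.29). The other falls were small, from -0.31 (Acox2, Cyp2b-null) to -0.64 (Hsd17b4, Cyp2b-null). Hsd17b4 in WT males was lost without ND-fed replicate 1 or 2 or CDAHFD-fed replicate 2, 3 or 4 (adjusted p 0.06 to 0.0789). In null males Acox2 was lost without ND-fed replicate 2 or 4 or CDAHFD-fed replicate 3 (0.0508 to 0.0883), and Amacr without ND-fed replicate 2, 3 or 4 or CDAHFD-fed replicate 2 or 3 (0.0613 to 0.126).

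Both conjugation enzymes fell in all 4 comparisons. Slc27a5, which activates bile acids to their CoA esters, stood at 1245, 1174, 1265 and 1367 CPM in ND-fed WT females and 476, 482, 533 and 307 CPM on the CDAHFD. WT males held 1265, 1375, 1250.0 and 1403 CPM on ND and 717, 585, 463 and 498 CPM on the CDAHFD. The lowest ND value was above the highest CDAHFD value in each sex and genotype, and the changes were -1.47 (SE 0.152, adjusted p = 5.54e-07) in WT females, -1.07 (SE 0.150, adjusted p = 2.03e-05) in null females, -1.22 (SE 0.152, adjusted p = 2.57e-06) in WT males and -1.37 (SE 0.153, adjusted p = 4.92e-07) in null males. Baat, which joins the acyl group to taurine, changed by -0.59 in WT and -0.41 in null females, and by -0.96 and -1.03 in males. Its call in Cyp2b-null females was lost without ND-fed replicate 1 or 3 (adjusted p 0.0665 and 0.0844).

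**Figure D3:**
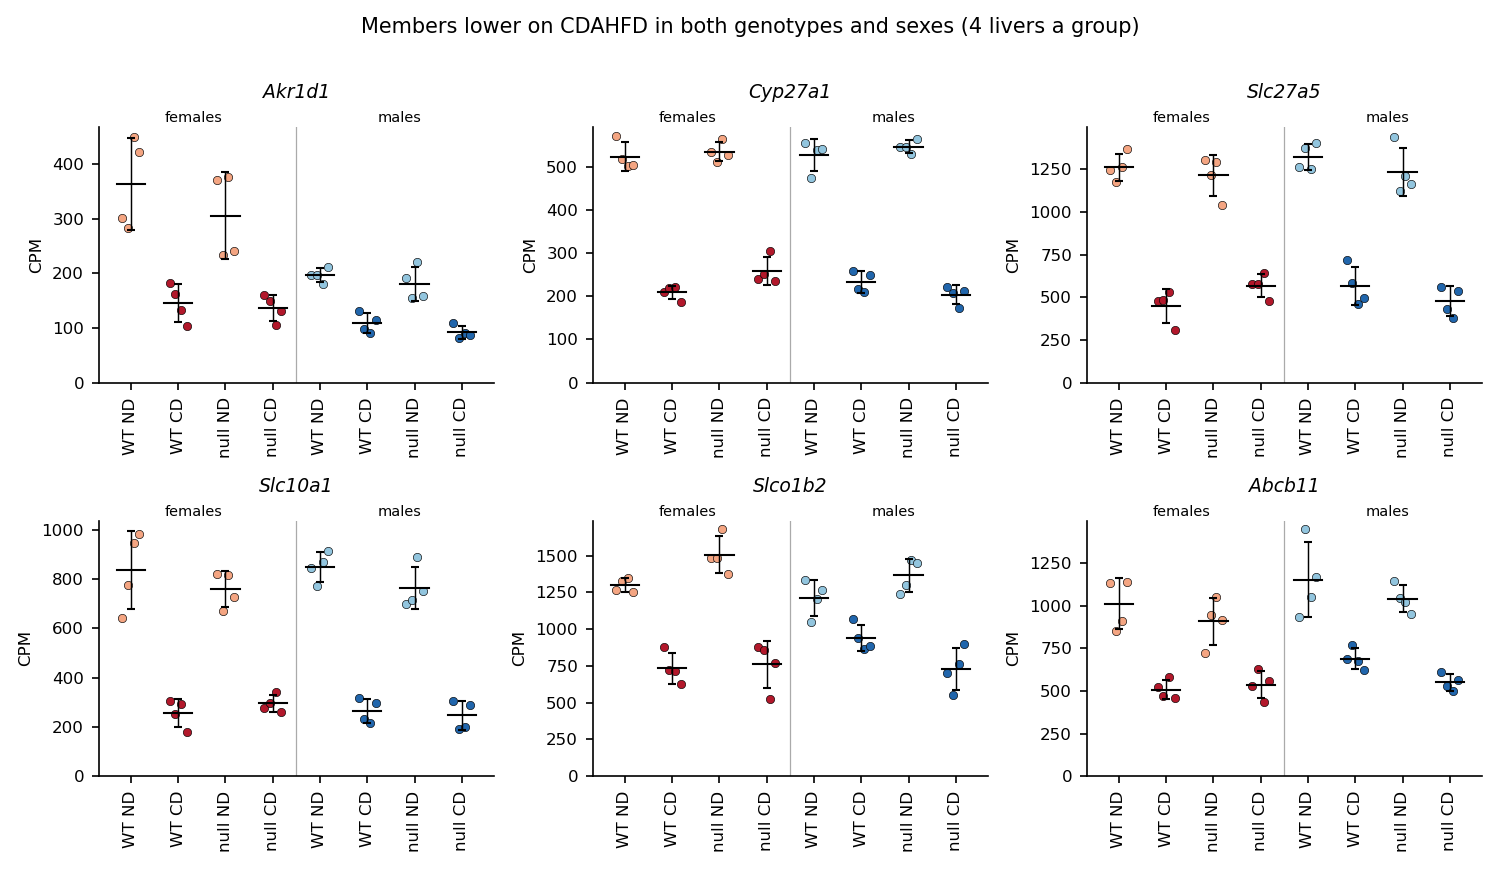
CPM of 6 members that fell in all 4 diet comparisons, for 4 livers in each of 8 groups; points are livers, long bars means and whiskers SD. Each CDAHFD group lies below the ND group of the same genotype and sex, and in Slco1b2 in WT males the groups overlap.

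Of the 5 uptake carriers of the sinusoidal membrane, 4 fell in each comparison, Slco1a1 not being called in females nor Slco1a4 in males. Slc10a1 (NTCP), the main sodium-dependent carrier, stood at 639.8, 776, 945 and 984 CPM in ND-fed WT females and 304, 250.2, 292 and 181 CPM on the CDAHFD. In WT males it stood at 845, 770.0, 867 and 914 CPM on ND and 318, 232, 215 and 295 CPM on the CDAHFD. Cyp2b-null males held 699.8, 714, 889.5 and 751 CPM on ND and 304, 192, 200 and 288 CPM on the CDAHFD. The diet groups did not overlap, and the log2 change was -1.68 (SE 0.166, adjusted p = 3.21e-07), -1.34 (SE 0.165, adjusted p = 4.48e-06), -1.68 (SE 0.161, adjusted p = 9.39e-08) and -1.63 (SE 0.161, adjusted p = 9.58e-08) in WT females, null females, WT males and null males.

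Slco1b2, the mouse counterpart of human SLCO1B1 and SLCO1B3, fell in all 4 comparisons, with log2 changes of -0.80, -0.96, -0.37 and -0.90. In WT males its values of 1336, 1050.0, 1203 and 1263 CPM on ND met 1065, 938, 866 and 887 CPM on the CDAHFD, and the call (adjusted p = 0.0491) was lost in 12 of 16 fits that left out 1 library (ND-fed WT replicates 1, 3 and 4, CDAHFD-fed WT 2, 3 and 4, ND-fed null 1 to 4, CDAHFD-fed null 1 and 3), with adjusted p up to 0.125.

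Slco1a1, a sodium-independent carrier of bile acids and steroid conjugates, was called in males: WT males held 808, 719, 814 and 808 CPM on ND and 339, 104, 109 and 94.4 CPM on the CDAHFD. The change was -2.28 (SE 0.362, adjusted p = 5.01e-05) in WT and -2.65 (SE 0.368, adjusted p = 7.96e-06) in Cyp2b-null males. Slco1a4, from the same cluster, fell in females: WT females held 236, 199.7, 295 and 255 CPM on ND and 154, 103, 72.8 and 87.5 CPM on the CDAHFD, a change of -1.22 (SE 0.199, adjusted p = 1.07e-04). The change was -1.04 (SE 0.198, adjusted p = 4.84e-04) in Cyp2b-null females and -0.20 and 0.11 in WT and null males, not called. In WT females, null females, WT males and null males, Slco2b1 changed by -0.55, -0.53, -0.54 and -0.68. Its call was lost in WT females without ND-fed replicate 3 or 4 or CDAHFD-fed replicate 4, in null females without ND-fed replicate 3, and in WT males without ND-fed replicate 2 or CDAHFD-fed replicate 3 or 4 (adjusted p 0.0505 to 0.139). Slco genes are similar in sequence and the treatment of reads that map more than once is not stated, so the split of reads among them is uncertain.

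On the canalicular membrane the bile salt pump and the phospholipid floppase went in opposite directions. Abcb11 stood at 937, 1449, 1053 and 1172 CPM in ND-fed WT males and 687, 770.0, 677 and 622 CPM on the CDAHFD, without overlap. Its changes were -0.97 (SE 0.152, adjusted p = 7.28e-05), -0.73 (SE 0.151, adjusted p = 0.001), -0.74 (SE 0.133, adjusted p = 1.9e-04) and -0.92 (SE 0.133, adjusted p = 1.38e-05) in WT females, null females, WT males and null males. Abcb4, which moves phosphatidylcholine into bile, rose: WT males held 376, 313, 341 and 401 CPM on ND and 556, 665, 652 and 608 CPM on the CDAHFD. The change was 0.80 (SE 0.120, adjusted p = 2.96e-05) in WT males and 0.55 (SE 0.120, adjusted p = 0.00102) in null males. In WT females it was 0.51 (SE 0.174, adjusted p = 0.0374), lost without ND-fed replicate 1, 3 or 4 or any CDAHFD-fed replicate (adjusted p 0.0536 to 0.138), and in null females 0.41, not called. Abcc2, the exporter of conjugated organic anions, was called in Cyp2b-null females alone (log2 change -0.57, adjusted p = 0.0467), where CDAHFD-fed replicate 3, the library that stands apart, held 174 CPM against 350.1 to 418 in the others. Without it adjusted p was 0.102, and the call was also lost without any other null library except CDAHFD-fed 1 and 4 and without WT ND-fed 1 or 4 or CDAHFD-fed 1, 2 or 3. The flippase Atp8b1 changed by -0.72 in null females, -0.43 in WT males and -0.36 in null males, all called, the last lost without ND-fed replicate 1 or 3 or CDAHFD-fed replicate 1, 2 or 3 (adjusted p 0.0572 to 0.108).

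The basolateral exporters carry bile acids back to blood. Abcc4 rose in males: WT males held 2.39, 4.63, 2.19 and 2.62 CPM on ND and 7.78, 6.25, 7.01 and 6.39 CPM on the CDAHFD. Cyp2b-null males held 2.78, 2.96, 1.69 and 0.886 CPM on ND and 6.6, 12.7, 12.2 and 9.43 CPM on the CDAHFD. Neither pair of groups overlapped, and the change was 1.21 (SE 0.307, adjusted p = 0.00432) and 2.26 (SE 0.312, adjusted p = 7.33e-06). In females the changes were -0.82 in WT and -0.87 in Cyp2b-null, not called. Slc51b, a subunit of the organic solute exporter, had 3 counts over the 4 ND-fed Cyp2b-null males and 82 over the 4 CDAHFD-fed ones, a ratio of 18.9 (exact 95% counting interval 6.25 to 93.7; edgeR adjusted p = 9.01e-04). In WT males the counts were 6 and 26, a ratio of 4.17 (1.68 to 12.4), not called over replicates. In Cyp2b-null females the change was 1.53 (SE 0.522, adjusted p = 0.0307), lost without CDAHFD-fed replicate 3 (adjusted p = 0.107) or ND-fed replicate 1, 2 or 4 (0.0739 to 0.0922). Of the exons of Slc51b, 12.8% lie opposite exons of Rasl12, and strand was not stated for the counts. Its partner Slc51a was near 0 in all groups. Abcc3, an exporter of conjugated anions, changed by -0.44 in null females, -0.53 in WT males and -0.41 in null males, all called. The call was lost in null females without ND-fed replicate 2 or 4 (adjusted p 0.0784 and 0.0502) and in null males without CDAHFD-fed replicate 2 (0.0521).

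Among the receptors, Klb fell in all 4 comparisons: WT females held 50.1, 42.8, 38 and 47.4 CPM on ND and 30.4, 19.1, 31.5 and 17.2 CPM on the CDAHFD. Its change was -0.85 (SE 0.181, adjusted p = 0.00149) in WT females, -1.26 (SE 0.180, adjusted p = 2.48e-05) in null females, -0.82 (SE 0.193, adjusted p = 0.00245) in WT males and -1.10 (SE 0.194, adjusted p = 1.3e-04) in null males. Fgfr4 was called in Cyp2b-null males alone (log2 change -0.43, adjusted p = 0.0222), and that call was lost without ND-fed replicate 3 or CDAHFD-fed replicate 1 or 3 (adjusted p 0.0623 to 0.0918). Slc10a2, the ileal uptake carrier that cholangiocytes also express, was called in Cyp2b-null males (-0.66, adjusted p = 0.00918) and in no other diet comparison.

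A list of 28 further genes of the pathway, 25 of them tested, gave 2 higher and 9 lower in WT females and 2 and 10 in Cyp2b-null females. In males it gave 4 higher and 8 lower in WT and 4 and 10 in Cyp2b-null mice. The nuclear receptors Nr1h4 (FXR), Nr5a2 (LRH-1) and Hnf4a, which regulate the synthesis enzymes, fell in males by 0.39 to 0.83 on the log2 scale in both genotypes. In WT females Hnf4a changed by -0.58 and Nr5a2 by -0.41, both called, and Nr1h4 by -0.20, not called. In null females all 3 were called, at -0.78 for Hnf4a, -0.84 for Nr5a2 and -0.38 for Nr1h4. These falls are on the TMM scale. The list was not refitted with library size alone, under which the median change of all genes moved up. The sphingosine phosphate receptor S1pr2, which conjugated bile acids activate, rose by 1.39 to 1.72 in the 4 comparisons, and Fgfr1 by 1.15 to 2.50. Fgf15, a hormone of the ileum, had 0 counts in every library.

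Markers of cell types moved with the diet. Of 6 hepatocyte markers, 5, 5, 6 and 5 fell in WT females, null females, WT males and null males. Their summed level in females was 130600 to 192800 CPM on ND and 77690 to 102500 CPM on the CDAHFD in WT, and 136300 to 171400 and 73450 to 116600 CPM in null livers. In males it was 118100 to 133500 CPM and 58650 to 104400 CPM in WT, and 109000 to 124200 and 55390 to 84960 CPM in null livers. On this TMM scale the hepatocyte sums thus did not overlap between diets in any genotype or sex. Alb made up most of each sum, with 535926 counts in ND-fed WT female replicate 1 against 12876 to 38600 for the other markers. By library size alone Alb overlapped between diets in WT males. It held 555512 of 7385812 counts in ND-fed replicate 2 and 428793 of 5266992 in CDAHFD-fed replicate 1.

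Of 6 macrophage markers, 4, 4, 5 and 5 rose, with sums of 331.6 to 539.0 CPM on ND and 784.5 to 963.9 CPM on the CDAHFD in WT females, and 331.4 to 473.9 and 801.5 to 1348 CPM in null females. In males the sums were 124.7 to 276.2 and 571.5 to 1146 CPM in WT, and 155.3 to 206.7 and 764.7 to 1310 CPM in null livers. Of 6 stellate cell markers 3, 4, 4 and 5 rose. Their sums were 198.7 to 281.1 CPM on ND and 335.7 to 429.7 CPM on the CDAHFD in WT females. In null females they were 218.9 to 265.4 and 361.8 to 448.1 CPM. In males the stellate sums were 90.01 to 151.5 and 230.6 to 386.9 CPM in WT, and 90.43 to 132.5 and 302.2 to 432.2 CPM in null livers. Of 5 cholangiocyte markers tested 2, 3, 2 and 2 rose, Spp1 in each, while the defining keratins Krt7 and Krt19 had group means of at most 2.91 CPM and were not called. The sums of all 6 cholangiocyte markers were 20.73 to 61.62 CPM on ND and 99.18 to 318 CPM on the CDAHFD. Spp1 made up most of each CDAHFD sum, so these sums mainly show that 1 gene. In CDAHFD-fed null male replicate 3 it had 3493 counts, against 16 to 108 for each of the other markers. Of 5 endothelial markers 3, 3 and 1 fell in the first 3 comparisons and 2 rose in null males. The summed level of 6 lymphocyte markers was at most 13.9 CPM, and 1 of the 2 tested rose in null females. The part of these shifts in the members' changes was not tested, and in whole-liver RNA fewer hepatocytes and less RNA per hepatocyte cannot be told apart.

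The next comparison asked which members differed between the sexes. In ND-fed WT livers 7 of 30 members were higher and 5 lower in males, where 17.8% of the 14020 genes tested over both tables were called. In ND-fed Cyp2b-null livers 6 were higher and 6 lower (13.3% called). On the CDAHFD 6 were called in WT, each higher in males (11.0% called). In CDAHFD-fed Cyp2b-null livers 4 were higher and 4 lower (18.1% called). The counts on the CDAHFD rested on single libraries: without female replicate 2, male replicate 1 or male replicate 2 the WT count was 3, without null male replicate 3 the null count was 4, and without null female replicate 3 and male replicate 4 it was 3 higher and 1 lower. Higher in ND-fed males of both genotypes were Cyp8b1, Cyp7b1, Acox2, Hsd17b4, Scp2 and Slco1a1. Lower were Akr1d1, Cyp39a1, Slco1a4, Abcc4 and Slc51b. The WT call of Acox2 (0.40) was lost without female replicate 1 or male replicate 2 (adjusted p 0.118 and 0.0794), with library size alone (0.0735), with no low-count filter (0.0543) and with only the groups compared (0.0841). Abcc3 was also called in WT (0.45), lost without female replicate 3 (0.0694) and with library size alone (0.0879), and Cyp2c70 in null livers (-0.63), lost without female or male replicate 1 (0.0605 each).

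Slco1a1 showed the largest sex difference on ND. ND-fed WT females held 42.5, 42.8, 4.38 and 10 CPM and ND-fed WT males 808, 719, 814 and 808 CPM, without overlap. ND-fed null females held 23.6, 57.7, 57.6 and 35.8 CPM and ND-fed null males 741, 757, 805 and 775 CPM. The log2 difference was 4.99 (SE 0.615, adjusted p = 3.33e-07) in WT and 4.14 (SE 0.585, adjusted p = 4.55e-06) in Cyp2b-null livers. On the CDAHFD females held 10.3, 17.2, 82.7 and 9.22 CPM in WT, and males 339, 104, 109 and 94.4 CPM. The difference was then 2.44 (SE 0.554, adjusted p = 0.00494) in WT and 2.25 (SE 0.552, adjusted p = 0.00507) in null livers, with no overlap of the sexes. The WT value rested on single libraries: it was 3.74 without female replicate 3, at 82.7 CPM the highest of the females, and 1.76 without male replicate 1, called in both cases. Slco1a4 was higher in females on ND, with a male minus female difference of -1.51 (SE 0.235, adjusted p = 2.07e-05) in WT and -1.68 (SE 0.238, adjusted p = 4.6e-06) in null livers, and was not called between the sexes on the CDAHFD.

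Cyp7b1 stood at 25.8, 20.7, 24.2 and 19.5 CPM in ND-fed WT females, against 274, 188, 219 and 142 CPM in males. The difference was 3.19 (SE 0.297, adjusted p = 8.6e-10) on ND and 1.99 (SE 0.298, adjusted p = 5.02e-05) on the CDAHFD in WT, and 3.34 and 1.45 in null livers. Cyp8b1 differed by 1.69 (SE 0.416, adjusted p = 0.00441) in WT and 2.36 (SE 0.428, adjusted p = 2.16e-04) in null livers on ND, and was not called on the CDAHFD. Scp2 differed by 1.29 (SE 0.144, adjusted p = 4.96e-08) in WT and 1.25 (SE 0.144, adjusted p = 8.74e-08) in null livers on ND. Akr1d1 was lower in ND-fed males, with differences of -0.89 in WT and -0.75 in null livers, and so was Cyp39a1 (-1.03 and -1.17). On the CDAHFD Cyp39a1 was higher in WT males (0.75, SE 0.209, adjusted p = 0.0194), a call lost without CDAHFD-fed female replicate 2 or 3 or male replicate 2 or 4 (adjusted p 0.0557 to 0.0864). Abcc4 was higher in CDAHFD-fed null males (1.32, SE 0.320, adjusted p = 0.00461) and lower in ND-fed null males, with a difference of -1.84 (SE 0.377, adjusted p = 0.001). In ND-fed WT livers the difference was -1.50 (SE 0.354, adjusted p = 0.00306). Slc51b was lower in ND-fed males, with differences of -2.44 (SE 0.830, adjusted p = 0.0378) in WT and -3.06 (SE 0.967, adjusted p = 0.0313) in null livers, on 6 and 3 counts in all in the males. The WT difference moved to -4.24 without male replicate 2, which held 5 of the 6 counts. These calls were lost without WT female replicate 3 or 4 or male replicate 1, 3 or 4, and without null female replicate 2 or 3 or male replicate 1 or 2 (adjusted p 0.0559 to 0.144).

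The other calls on the CDAHFD were small. In WT livers Scp2 (0.56, SE 0.142, adjusted p = 0.0106), Abcb11 (0.44, SE 0.140, adjusted p = 0.0395) and Hsd17b4 (0.39, SE 0.121, adjusted p = 0.0354) were higher in males. Each was lost without 1 or more of the 8 CDAHFD-fed WT libraries, Scp2 without male replicate 1 (adjusted p = 0.0645), Abcb11 without female 1, 2 or 4 or male 1, 2 or 3 (0.0669 to 0.142) and Hsd17b4 without female 2 or 4 or male 1, 2 or 3 (0.065 to 0.113). In null livers Abcc2 (0.71, SE 0.180, adjusted p = 0.00638) was higher in males, and adjusted p was 0.101 without the female replicate 3 that stands apart and male replicate 4. Akr1d1 (-0.57, SE 0.184, adjusted p = 0.0304), Amacr (-0.48, SE 0.130, adjusted p = 0.0104), Cyp27a1 (-0.34, SE 0.107, adjusted p = 0.0251) and Baat (-0.34, SE 0.119, adjusted p = 0.0428) were lower. Those 4 calls were each lost without null male replicate 3 (0.0553 to 0.161), and all but Amacr in at least 1 other such fit.

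**Figure D4:**
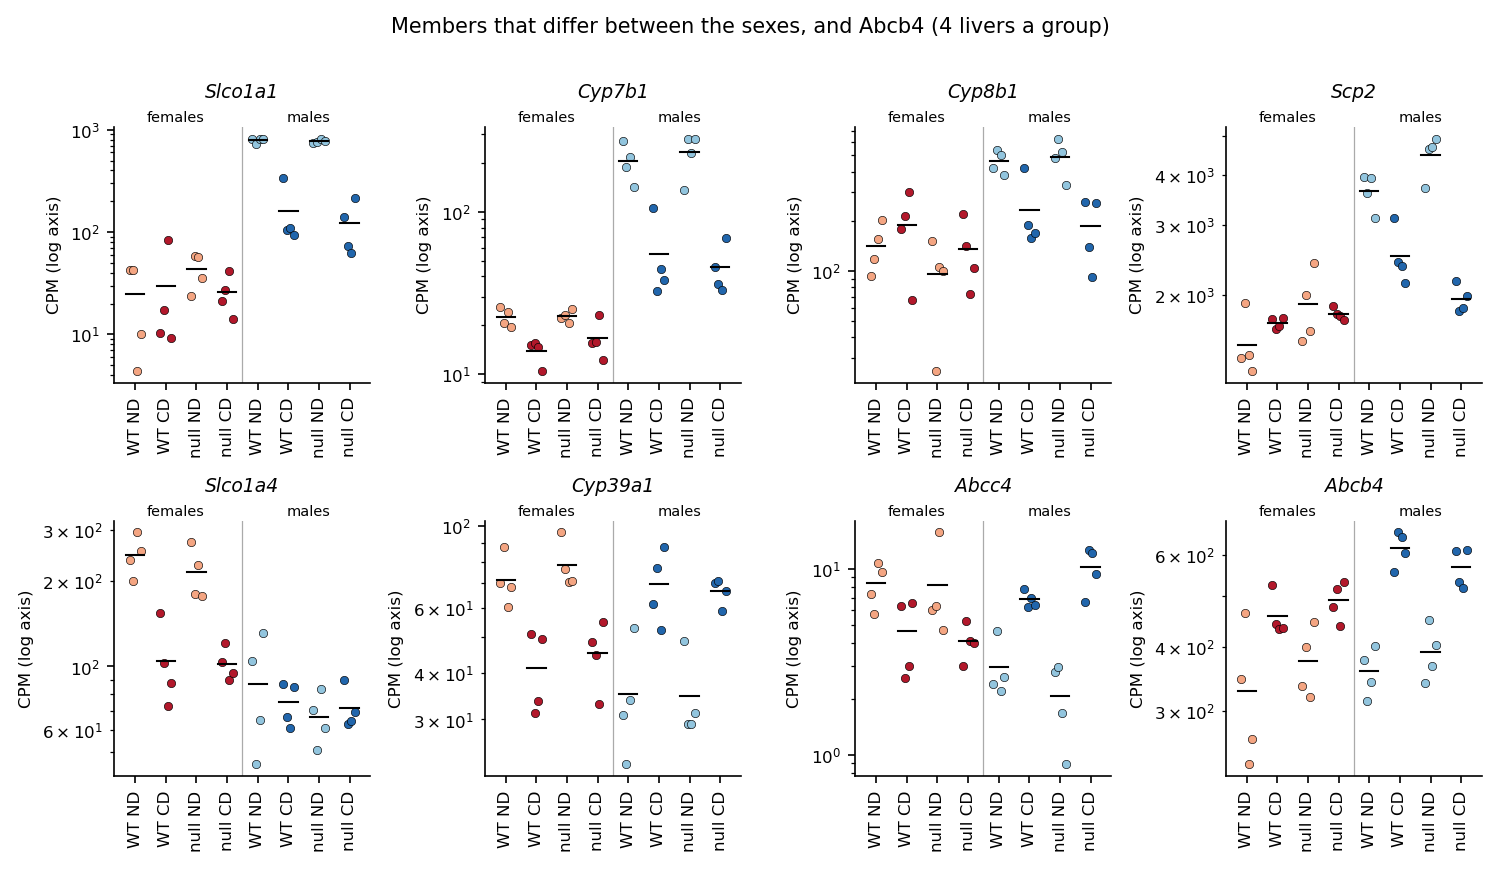
CPM of 7 members that differ between the sexes and of Abcb4, for 4 livers in each of 8 groups on log axes; points are livers and bars means. Slco1a1, Cyp7b1, Cyp8b1 and Scp2 drop on the CDAHFD in males toward the female level, while Abcc4, Cyp39a1 and Abcb4 stand higher on the CDAHFD than on ND in males.

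Whether the diet acted differently in the sexes was tested as an interaction. It was called for 2 of 30 members in WT (0.970% of genes called) and 6 in Cyp2b-null mice (3.40% called). Cyp39a1 differed by 1.78 (SE 0.299, adjusted p = 8.08e-04) in WT and 1.72 (SE 0.296, adjusted p = 7.71e-04) in null mice (male minus female diet change). Abcc4 differed by 2.05 (SE 0.487, adjusted p = 0.0273) and 3.16 (SE 0.494, adjusted p = 2.43e-04), and its WT call was lost without any 1 of 8 of the 16 WT libraries (ND-fed female 3 and 4, ND-fed male 1, 3 and 4, CDAHFD-fed female 2 and 3, CDAHFD-fed male 3), with adjusted p up to 0.0733. Without CDAHFD-fed WT male replicate 1 the WT count was 5. In null mice Cyp7b1 (-1.88), Scp2 (-1.12) and Baat (-0.60) had the more negative change in males, and Slco1a4 (1.17) had it in females. The calls of Baat and Slco1a4 had adjusted p of 0.037 and 0.0409 and were lost in 9 and 10 of the fits that left out 1 library, with adjusted p up to 0.107. For Baat these left out ND-fed null female 2 or 4, CDAHFD-fed female 1 or 4, ND-fed male 2, 3 or 4 or CDAHFD-fed male 2 or 3. For Slco1a4 they left out ND-fed null female 1 or 3, CDAHFD-fed female 1, 3 or 4, ND-fed male 2 or 4 or CDAHFD-fed male 1, 3 or 4. Slco1a1 had an interaction of -2.56 (SE 0.772, adjusted p = 0.123) in WT and -1.89 (SE 0.757, adjusted p = 0.159) in null mice, not called, so its diet change is not shown to differ between the sexes.

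Cell type markers moved with sex too. Of 6 macrophage markers, 6 were lower in ND-fed males of either genotype, with sums of 124.7 to 276.2 CPM in WT males against 331.6 to 539.0 CPM in WT females and of 155.3 to 206.7 against 331.4 to 473.9 CPM in null livers. Of 6 stellate cell markers 2 were lower in ND-fed males of either genotype, with sums of 90.01 to 151.5 against 198.7 to 281.1 CPM in WT and 90.43 to 132.5 against 218.9 to 265.4 CPM in null livers, and neither pair overlapped. Of 5 endothelial markers 1 was lower in ND-fed WT males and 5 in ND-fed null males, with sums of 150.9 to 232.6 against 214.7 to 272.7 CPM and 141.2 to 185.5 against 218.9 to 278.7 CPM. Of the other lists on ND, 1 of 6 hepatocyte markers was lower in males of either genotype, 1 of 5 cholangiocyte markers was higher and 1 lower, and 1 of 3 lymphocyte markers was lower in null males. On the CDAHFD 1 hepatocyte marker was called, lower in null males. The diet-by-sex interaction was called for 2 macrophage markers in WT, and for 4 macrophage and 3 endothelial markers in null mice, each with the higher diet change in males. The part of these shifts in the members' differences was not tested.

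The last comparison asked what the loss of Cyp2b did. 0 of 30 members were called between genotypes on ND or on the CDAHFD in either sex, by the main edgeR fits and by DESeq2. With no low-count filter, Slco1a1 was called on ND in females and Cyp7a1 on ND in males. In the main fits, at unadjusted p under 0.05 there were 1 on ND and 2 on the CDAHFD in females, and 2 and 5 in males, where 5.75%, 5.83%, 8.26% and 3.62% of all genes tested were. Few genes of any kind were called: 0.0756% on ND and 0.0227% on the CDAHFD in females, and 0.0371% and 0.0297% in males. The smallest adjusted p among the members was 0.841, 0.826, 0.567 and 1 in that order.

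The 95% interval of the genotype difference lay within 1 log2 unit of 0 for 24 and 25 of the 30 members in females, on ND and the CDAHFD, and for 26 and 26 in males. The members whose interval reached further were Cyp7a1, Cyp8b1, Cyp46a1, Slco1a1, Slc51b, Slc10a2 and Abcc4, each in at least 1 comparison. Slc10a1, for example, stood at 758 ± 72.6 CPM in ND-fed null females against 836 ± 159 CPM in WT, and at 295 ± 35.2 against 257 ± 55.5 CPM on the CDAHFD (SD, n = 4). The paper lists Cyp27a1 as turning from down to up in CDAHFD-fed null females relative to WT. These null females held 234.05 to 305.7 CPM and WT females 186.5 to 220.4 CPM, so the direction was the one the paper lists. The difference was not called at adjusted p under 0.05 over all genes tested. The paper's list took genes at p under 0.05 between these groups, after a filter over all groups, so the thresholds differ. Of the 4 tested genes of the oxysterol and alternative route, Cyp27a1 among them, 1 had unadjusted p under 0.05 by edgeR. Cyp27a1 was the 1 of 30 members without overlap in that comparison, where 2.83% of all genes did not overlap. Scp2 differed on ND by 0.34 (SE 0.148, adjusted p = 0.841) in females and 0.30 (SE 0.144, adjusted p = 0.605) in males. On the CDAHFD it was -0.36 (SE 0.144, adjusted p = 1) in males, with 1954 ± 156 CPM in null against 2503 ± 420 CPM in WT livers. Slco1b2 in CDAHFD-fed males was -0.37 (SE 0.140, adjusted p = 1), and Abcc4 0.59 (SE 0.270, adjusted p = 1).

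**Figure D5:**
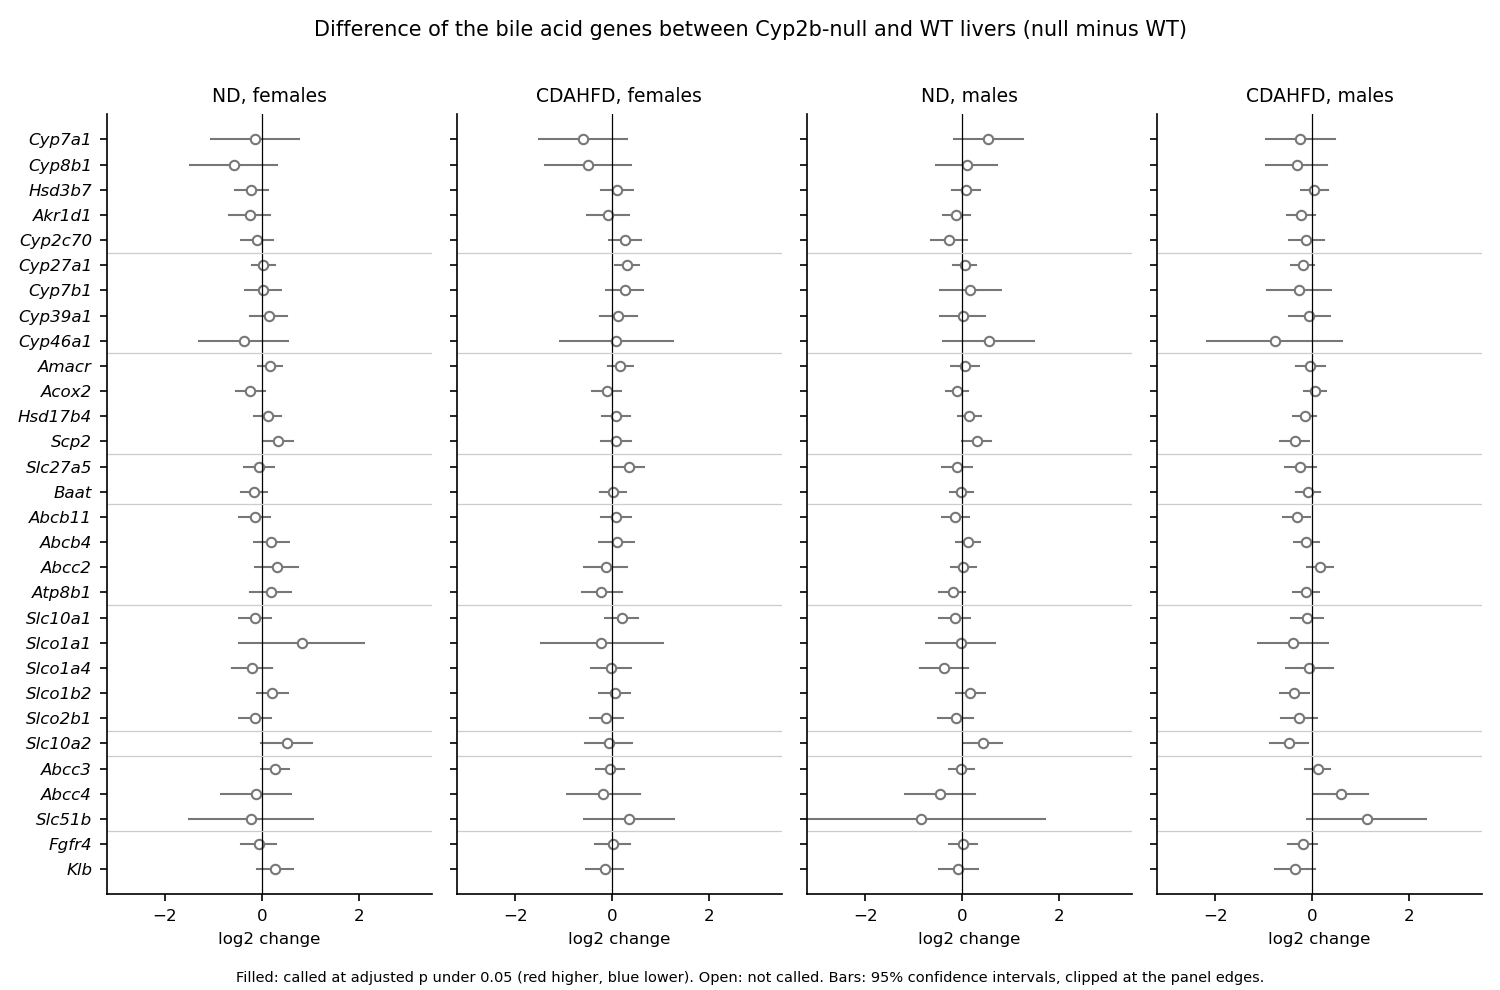
Log2 difference between Cyp2b-null and WT livers for each tested member, with 95% confidence intervals, on ND and the CDAHFD in each sex. All points are open (not called), most intervals span 0, and the wide ones belong to Cyp7a1, Cyp8b1, Cyp46a1, Slco1a1 and Slc51b.

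The diet change did not differ detectably between genotypes in the main fits. The interaction was called for 0 of 30 members in females, where 0% of 13226 genes were called by edgeR (830 at unadjusted p under 0.05, and 2 genes by DESeq2), and for 0 in males (0.00743% of genes). At unadjusted p under 0.05 there were 0 members in females and 4 in males, where 6.28% and 6.07% of all genes were: Scp2 (-0.66, SE 0.203, adjusted p = 0.608), Slco1b2 (-0.54, SE 0.198, adjusted p = 0.699), Slc10a2 (-0.91, SE 0.270, adjusted p = 0.562) and Abcc4 (1.05, SE 0.444, adjusted p = 0.736). DESeq2 called 0 members in either sex, and edgeR with no low-count filter called 1 in females and 2 in males (Cyp7a1 and Slc10a2). The interval of the interaction reached past 1 log2 unit for 8 members in females and 10 in males, so a difference of that size lies within the error for them.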

How the data were processed

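Liver RNA of 32 mice was sequenced, 4 per group, after Trizol extraction and NEB Next Ultra library preparation. The authors deposited raw counts per gene, 1 table per sex, and the submitters' processing notes name FastQC, Trimmomatic, GSNAP, Subread and edgeR on GRCm38.p6. Versions, strand and multi-mapping settings, and whether any library pooled mice, are not given in the sources used here. All 32 libraries and all columns of the tables were used.

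Counts were tested with edgeR 4.0.16 (quasi-likelihood, TMM factors, R 4.3.3) after filtering at a minimum count of 10 and a minimum total of 15. Diet, genotype and their interaction were fitted within each sex, and sex and diet-by-sex over all 8 groups, since both tables share one gene list. P-values were adjusted by the Benjamini-Hochberg method over all genes tested and called at 0.05. Depth ran from 2906411 to 10166959 counts, and intervals on counts cover counting error only. The fits were checked on counts simulated from the estimated dispersions, with some genes changed in both directions. That simulation holds no shift of all genes between diets, so it cannot judge the choice of scaling. Alternatives were DESeq2 1.42.0, RLE factors, library size, other filters, a replicate block, only the groups compared, and leaving out libraries. Per-length levels used the exons of GRCm38.p6.

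The members, marker lists and alternatives were chosen with earlier results of these data known. Members called in a comparison were to be given in full, or the 4 largest rises and falls where more than 10 were called.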

Additional observations from a re-analysis of the deposited data

Results flagged for a closer look

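In a group of 4 livers, a single library was set apart when its gap to the nearest other exceeded Dixon's critical share of the range for 4 samples. This held in 15 of 240 groups looked at, and chance gives about 1 in 20. Among synthesis genes, Cyp7a1 stood at 176 CPM in CDAHFD-fed Cyp2b-null male replicate 4 against 101 to 113 in the others. Cyp8b1 stood at 418 CPM in CDAHFD-fed WT male replicate 1 against 159 to 189, and Cyp7b1 at 105 CPM in the same liver against 32.7 to 44.7. Cyp7b1 stood at 10.5 CPM in CDAHFD-fed WT female replicate 4 against 14.8 to 15.6, and Cyp39a1 at 49.0 CPM in ND-fed Cyp2b-null male replicate 1 against 29.1 to 31.2.

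Among transporters, Slco1a1 stood at 339 CPM in CDAHFD-fed WT male replicate 1 against 94.4 to 109, so this liver was set apart for 3 members that are higher in ND-fed males than in females. Slco1a1 also stood at 82.7 CPM in CDAHFD-fed WT female replicate 3 against 9.22 to 17.2, and at 719 CPM in ND-fed WT male replicate 2 against 808 to 814. Abcb4 stood at 525 CPM in CDAHFD-fed WT female replicate 1 against 433 to 441. Slc10a2 stood at 22.1 CPM in CDAHFD-fed Cyp2b-null female replicate 3 against 28.6 to 29.7. Abcc3 stood at 273 CPM in ND-fed WT female replicate 3 against 339 to 351. Abcc4 stood at 15.8 CPM in ND-fed Cyp2b-null female replicate 3 against 4.68 to 6.35. Slc51b stood at 0.827 CPM in ND-fed WT male replicate 2 against 0 to 0.137. Of the receptors, Fgfr4 stood at 53.3 CPM in ND-fed WT female replicate 1 against 37.5 to 40.1, and Klb at 35.9 CPM in ND-fed Cyp2b-null male replicate 4 against 47.4 to 49.4.

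The diet change differed between the sexes, by edgeR's interaction test, for 2 members in WT and 6 in Cyp2b-null mice. The log2 difference, male minus female, was 1.78 for Cyp39a1 and 2.05 for Abcc4 in WT mice. In Cyp2b-null mice it was -1.88 for Cyp7b1, 1.72 for Cyp39a1, -1.12 for Scp2, -0.60 for Baat, 1.17 for Slco1a4 and 3.16 for Abcc4.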

How the results depend on the processing

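Of 126 calls on members, DESeq2 kept 126, RLE factors 125, a 1 CPM filter 125, the replicate block 124, no low-count filter 115, leaving out the 2 libraries absent from the heat maps 118, and fitting only the groups compared 107 of 120. Library size alone kept 92, lost 30 and turned 4 to slight rises: log2 change of Slco1b2 0.01 and Hsd17b4 0.05 in WT males, and of Acox2 0.05 and Atp8b1 0.01 in Cyp2b-null males. The diet count in WT males was 14 with library size alone. With no low-count filter, 1 member (Slco1a1) was called between genotypes on ND and 1 for the diet-by-genotype interaction in females. In males it was 1 (Cyp7a1) and 2 (Cyp7a1, Slc10a2), and 6 for diet-by-sex in WT. Without the libraries absent from the heat maps, 4 members differed by sex in CDAHFD-fed Cyp2b-null livers.

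Leaving out 1 library kept 2592 of 2752 calls. The diet counts ran from 12 to 16 and 13 to 17 in WT and null females, and from 17 to 23 and 22 to 26 in males. Genotype and diet-by-genotype counts ran from 0 to 0. Sex counts ran from 10 to 13 (ND-fed WT), 3 to 8 (CDAHFD-fed WT), 10 to 12 (ND-fed null) and 4 to 9 (CDAHFD-fed null), and diet-by-sex counts from 1 to 5 in WT and 4 to 7 in null mice.

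With the replicate block 16, 17, 21 and 26 members were called with diet. The numbers gave no sign of pairing: over 112 pairs of same-numbered libraries in 28 pairs of groups the median correlation of their deviations was 0.003, and 15 exceeded 0.1. Over all genes, DESeq2 called 23 between genotypes on ND in females against 10 by edgeR, 72 against 5 in males, 5 against 3 on the CDAHFD in females, and 220 against 136 for diet-by-sex in WT mice. The causes were not tested. Slc51b and Cyp46a1 rest on few counts.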
